A study of Mus musculus with 4 samples.

Results

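The genes described are 9 regulators and markers of the mesenchymal state: the transcription factors Zeb1, Zeb2, Snai1, Snai2, Twist1 and Twist2, the intermediate filament protein Vim, and the matrix proteins Fn1 and Tgfbi. Their probes were taken as every non-control probe whose RefSeq accession belongs to one of these genes, which gave 14 of the 56605 probes on the array and 9 of the 23462 gene symbols the array covers. Zeb2 and Fn1 had 3 probes each, Zeb1 had 2, and the other 6 genes had 1 each. Probes of 1 gene read the same transcripts or overlapping ones and are not replicates of a condition.

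RNA was profiled on 4 single-colour Agilent arrays in B16-F10, a mouse melanoma line derived from a C57BL/6 tumour and selected for spread to the lung. The control group (2 arrays) was kept for 24 h without recombinant Cdh1, and the Cdh1 group (2 arrays) received it at 100 ng/mL for the same time. Cdh1 is E-cadherin, the adhesion molecule of epithelial junctions. All 4 cultures shared the cell line and a medium with 10% fetal bovine serum, and set 1 and set 2 each held 1 control and 1 Cdh1 culture. The labels describe no genetic change and no carrier-protein control. They do not say how the sets differed apart from being independent, so all p-values describe these 4 samples alone. Without the sets as a further term, p-values for Cdh1 against control measure the spread between the 2 cultures of a group. Those for set 2 against set 1 measure the spread between control and Cdh1 within a set, not the spread between independent sets. Hereafter a level is log2 of the processed spot intensity minus the 75th percentile of that array, so 0 is the 75th percentile and 1 unit is a 2-fold step. A probe is well above background where the scanner software marked it so, and the lowest level of any such probe was between -6.04 and -5.60 on the 4 arrays.

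In the epithelial-mesenchymal transition, cells loosen their E-cadherin junctions and take on a migratory form with a vimentin skeleton and a fibronectin-rich matrix. Snail, Zeb and Twist proteins bind E-box sequences in DNA, and Snail and Zeb proteins repress the E-cadherin gene, while TGF-beta signalling through Smad proteins induces several of them together with matrix genes. Cells of the melanocyte lineage come from the neural crest and use this network differently from epithelia: Zeb2 and Snai2 belong to the differentiated melanocyte programme, and Zeb1 and Twist1 are known from less differentiated melanoma states.

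RefSeq promoter windows were found for 6 of the 9 genes, and 4 are shown because the results below turn on these genes. Each is the 250 bases before the annotated start on GRCm38.p6, read 5' to 3' along the gene's strand, with matches to the searched motifs in capitals. Among those of the 9 genes measured on every array, Tgfbi (chr13:56609336-56609585, plus strand) had the widest difference between the culture sets. Vim (chr2:13574061-13574310, plus strand) lay just outside the threshold in that comparison. Twist1 (chr12:33957421-33957670, plus strand) had the widest difference between Cdh1 and control among the tested members of the 9. Snai1 (chr2:167537945-167538194, plus strand) was below background throughout.
Tgfbi: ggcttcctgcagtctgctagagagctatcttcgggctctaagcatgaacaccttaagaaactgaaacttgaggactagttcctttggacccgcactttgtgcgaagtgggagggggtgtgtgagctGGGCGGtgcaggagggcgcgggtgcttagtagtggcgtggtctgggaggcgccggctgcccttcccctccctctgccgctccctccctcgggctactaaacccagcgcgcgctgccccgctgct
Vim: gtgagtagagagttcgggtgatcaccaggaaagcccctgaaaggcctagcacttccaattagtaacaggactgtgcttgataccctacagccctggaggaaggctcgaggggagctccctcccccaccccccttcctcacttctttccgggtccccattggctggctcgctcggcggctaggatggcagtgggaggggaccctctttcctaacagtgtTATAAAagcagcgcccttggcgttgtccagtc
Twist1: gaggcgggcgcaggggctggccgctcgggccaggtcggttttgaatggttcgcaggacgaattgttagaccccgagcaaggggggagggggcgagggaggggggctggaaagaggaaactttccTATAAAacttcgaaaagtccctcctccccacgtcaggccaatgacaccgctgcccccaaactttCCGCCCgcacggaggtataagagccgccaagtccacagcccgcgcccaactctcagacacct
Snai1: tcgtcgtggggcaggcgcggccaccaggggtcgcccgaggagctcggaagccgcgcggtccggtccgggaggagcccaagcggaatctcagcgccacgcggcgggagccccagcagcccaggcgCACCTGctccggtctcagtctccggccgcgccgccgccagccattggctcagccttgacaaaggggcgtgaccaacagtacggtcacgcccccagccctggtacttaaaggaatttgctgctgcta
The motifs searched on both strands were the E-box CACCTG that Snail and Zeb proteins bind, the AP-1 site TGANTCA, the GC box GGGCGG and the TATA box TATAAA. Snai1 held 1 E-box, 126 bases before its start, where 17.2% of the 32851 mouse promoter windows of this length hold one. Vim held 1 TATA box, 32 bases before its start, against 12.4% of windows. Tgfbi held 1 GC box, 124 bases before its start, against 32.7% of windows. Twist1 held 1 GC box on the minus strand, 62 bases before its start, and 1 TATA box, 126 bases before its start. The AP-1 site, present in 6.75% of windows, was in none of the 6. No match overlapped another. These matches describe the letters of the windows and are no evidence of binding.

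The arrays were of even quality. Between 59.29% and 61.33% of non-control spots were well above background, none was saturated, and between 115 and 143 spots per array were left out as outliers. All 4 arrays lay on 1 slide read in 1 scan. Of the 14 member probes, 9 (of Zeb2, Snai2, Vim, Fn1 and Tgfbi) were well above background on all 4 arrays, 4 (of Zeb1, Snai1 and Twist2) on none, and the Twist1 probe on the 2 control arrays alone. A probe entered the tests if both control arrays, or both Cdh1 arrays, had it well above background, which left 32568 probes in all and 10 member probes of 6 genes. The labelled cell type was checked against markers: all 10 melanocyte-lineage genes, among them Tyr, Dct, Pmel and Mitf, were well above background on all 4 arrays.

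**Figure D1:**
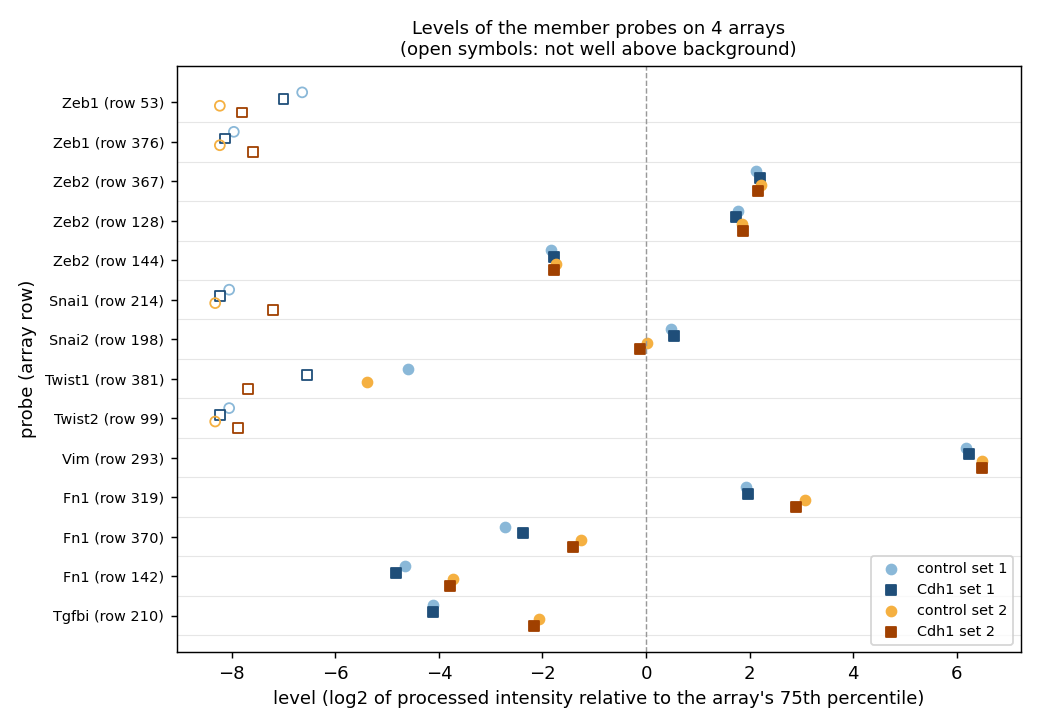
Levels of the 14 probes of the 9 genes on each of the 4 arrays, as log2 relative to the 75th percentile of the array, with 1 point per array and filled or open symbols for probes well above background or not. Zeb2 and Vim points nearly coincide, the Fn1 and Tgfbi points split by set rather than by group, and the points of Zeb1, Snai1 and Twist2 lie below the lowest level well above background.

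The Zeb proteins are zinc-finger and homeodomain repressors, and of this pair the arrays detected Zeb2. The brightest Zeb2 probe (A_51_P121206, NM_015753, array row 367) stood at 2.13 (control) and 2.20 (Cdh1) in set 1 and at 2.21 (control) and 2.16 (Cdh1) in set 2. The 4 values spanned less than 0.1 and the groups overlapped. The second Zeb2 probe (A_52_P596008, row 128) gave 1.77, 1.73, 1.86 and 1.88 in the same order, and the third (A_52_P526372, row 144) gave -1.84, -1.78, -1.74 and -1.77. On the second probe both values of set 2 were above both of set 1, by 0.12 (SE 0.05), which did not pass the test (limma adjusted p = 0.203). With Cdh1 the 3 probes differed from control by 0.00 (SE 0.10), -0.01 (SE 0.12) and 0.01 (SE 0.11), and on each the sign differed between the sets. The 95% interval of the first was -0.29 to 0.30, which gives the uncertainty of that difference at 24 h on these 4 arrays.

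Zeb1 (NM_011546) had 2 probes and neither was above background on any array. Their processed intensities were 5.72, 4.50, 2.08 and 2.77 for A_55_P2798179 (row 53) and 2.28, 2.06, 2.07 and 3.2 for A_55_P2588577 (row 376), with control before Cdh1 and set 1 before set 2. The lowest processed intensity of any non-control spot was between 1.84 and 2.52 on these arrays, so the second probe lay at or near the bottom of the scale. Snai1 (A_51_P165087, NM_011427, row 214), the Snail factor that responds early to TGF-beta, gave 2.15, 1.92, 1.95 and 4.18. Twist2 (A_51_P165504, NM_007855, row 99), a basic helix-loop-helix repressor of mesenchymal tissues, gave 2.15, 1.93, 1.95 and 2.62. On 3 of these 4 probes Cdh1 set 2 held the highest value, and that array also had the highest of the lowest intensities. No fold is given where both groups are below background, and a transcript that these probes do not read would not appear here.

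Snai2, or Slug, is the Snail factor of neural crest and melanocytes. Its probe (A_51_P305547, NM_011415, row 198) stood at 0.49 (control) and 0.53 (Cdh1) in set 1 and at 0.02 (control) and -0.11 (Cdh1) in set 2. The 2 arrays of set 1 were above both arrays of set 2, and within each set control and Cdh1 were close. Snai2 fell by 0.56 from set 1 to set 2 (SE 0.07, 95% interval -0.75 to -0.36), which is 1.47-fold lower (1.29 to 1.69; limma adjusted p = 0.0251). With the group as a further term (the fit with the sets as replicate block) its adjusted p was 0.0596, so the call was lost. The mean level was 0.26 ± 0.34 in control and 0.21 ± 0.45 with Cdh1 (SD, n = 2), a difference of -0.04 (SE 0.30) whose interval ran from -0.88 to 0.80.

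Twist1, a basic helix-loop-helix factor of the neural crest, was the member nearest the detection limit. Its probe (A_52_P20906, NM_011658, row 381) had processed intensities of 23.4 (control) and 6.19 (Cdh1) in set 1 and of 14.9 (control) and 3.0 (Cdh1) in set 2, that is levels of -4.60, -6.54, -5.39 and -7.68. Both control values were well above background and neither Cdh1 value was, and the groups did not overlap. With each Cdh1 value set to the lowest level well above background on its array, the control mean was 1.71-fold higher. A probe below background can lie above that level, so this fold is not a strict minimum. The measured means were -5.00 ± 0.56 in control and -7.11 ± 0.81 with Cdh1 (SD, n = 2). The fitted difference of -2.12 (SE 0.50) had an unadjusted limma p of 0.014 and an adjusted p of 1, or 0.000402 and 0.668 with the replicate block, so it did not pass the test in either fit. Because the probe entered the test through its control arrays alone, a difference in this direction was built into its selection. Under normexp background correction of the median signal together with quantile normalization the difference was -0.35. With quantile normalization alone it was -2.26.

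The Twist1 probe lay among the last 24 rows. Of the 1949 probes there that were printed once and were above background on every array, the share with Cdh1 and control 2-fold or more apart was 2.72% within set 1 and 2.21% within set 2. Elsewhere on the array it was 0.18% and 0.266% of 28916 probes. The last 24 rows hold 4 of the 14 member probes: Twist1, the brightest Zeb2 probe, 1 Zeb1 probe and 1 Fn1 probe. The part of array position in the Twist1 difference was not tested.

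**Figure D2:**
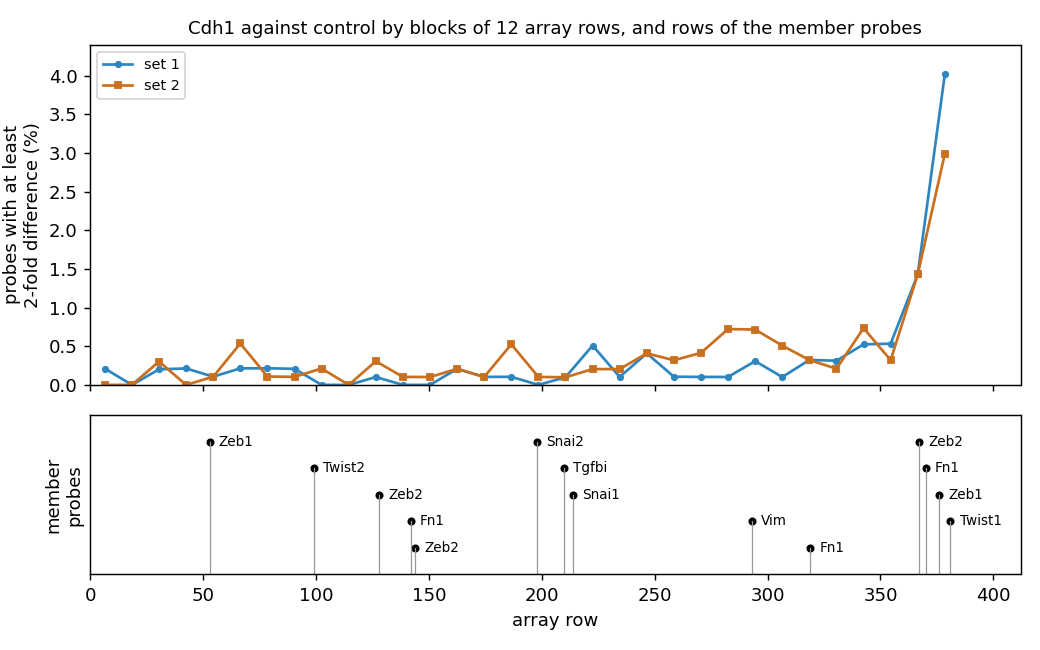
Share of probes with Cdh1 and control 2-fold or more apart (percent, vertical axis of the upper panel) by array row in bins of 12 rows, for set 1 and set 2, with the rows of the 14 member probes marked in the lower strip. The shares are highest in the last 2 bins, where 4 member probes lie, Twist1 among them.

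Vimentin, the intermediate filament protein of mesenchymal and neural-crest cells, was bright on every array. Its probe (A_51_P392687, NM_011701, row 293) had levels of 6.17 (control) and 6.23 (Cdh1) in set 1 and of 6.49 (control) and 6.48 (Cdh1) in set 2. The 2 arrays of set 2 were above both of set 1, and control and Cdh1 overlapped. The set difference of 0.29 (SE 0.05, interval 0.13 to 0.44, or 1.22-fold) had a limma adjusted p of 0.0512 and just missed the threshold of 0.05. It passed with quantile normalization (0.0437), on the authors' table (0.0477) and with the filter on all 4 arrays (0.0415), among other settings. It missed by more with median centring (0.088), the replicate block (0.096) and no filter on dim probes (0.241). The Cdh1 difference was 0.02 (SE 0.18), with an interval from -0.47 to 0.51.

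Fibronectin is the matrix glycoprotein that integrins bind and whose assembly accompanies mesenchymal change. Its brightest probe (A_55_P2130178, NM_010233, row 319) stood at 1.93 (control) and 1.97 (Cdh1) in set 1 and at 3.06 (control) and 2.90 (Cdh1) in set 2. The sets did not overlap, and the groups did. Fn1 rose by 1.03 from set 1 to set 2 (SE 0.08, interval 0.81 to 1.26), a 2.05-fold difference (1.76 to 2.39; limma adjusted p = 0.0136), and it was 1.14 between the controls and 0.93 between the Cdh1 cultures.

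The other Fn1 probes gave the same picture at lower signal. A_51_P100856 (NM_010233, row 370) read -2.72, -2.38, -1.25 and -1.42 in the same order of arrays. Its set difference was 1.21 (SE 0.15), or 2.31-fold, with an adjusted p of 0.0248 that became 0.0589 with the replicate block. A_55_P2743309 (NM_001276413, row 142) read -4.65, -4.83, -3.72 and -3.79, a set difference of 0.99 (SE 0.09), or 1.98-fold (adjusted p = 0.0160). All 3 probes were thus higher in set 2 by a factor between 1.98 and 2.31. Under normexp with quantile normalization the log2 difference was 0.87 for A_51_P100856 and 0.35 for A_55_P2743309. With Cdh1 they differed from control by -0.06 (SE 0.53), 0.08 (SE 0.63) and -0.13 (SE 0.51), in no case beyond the spread between arrays. Within set 1 the second probe was higher with Cdh1 by 0.34 and within set 2 it was lower by 0.18.

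Tgfbi, a secreted matrix protein that TGF-beta induces and that binds integrins and collagen, showed the widest set difference among the members tested. Its probe (A_51_P212754, NM_009369, row 210) read -4.12 (control) and -4.11 (Cdh1) in set 1 and -2.07 (control) and -2.16 (Cdh1) in set 2. The values of set 1 lay 0.01 apart and those of set 2 lay 0.08 apart, with about 2 units between the sets. Tgfbi rose 4.0-fold from set 1 to set 2 (3.56 to 4.49; log2 difference 2.0, SE 0.06; limma adjusted p = 0.00772, or 0.0422 with the replicate block), with 2.05 in the controls and 1.95 in the Cdh1 cultures. Without the filter on dim probes its adjusted p was 0.0743, and under normexp with quantile normalization the log2 difference was 1.12. The Cdh1 difference was -0.04, with an SE of 1.01 that the gap between the sets makes wide. With the sets as replicate block its interval narrowed from -2.86 to 2.78 down to -0.25 to 0.17.

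In the comparison of Cdh1 with control 0 of the 10 member probes passed, and every adjusted p was 1. With the sets as replicate block 0 passed as well, and the lowest adjusted p was 0.668, of Twist1. The background is the same: of all 32568 probes 0 passed (0%) with limma, 561 (1.72%) had an unadjusted p under 0.05, and 2335 (7.17%) had one with the replicate block. Among the members 1 probe, Twist1, had an unadjusted p under 0.05 in each fit. Apart from Twist1 the differences ran from -0.13 to 0.08. The median of the 10 was -0.025, beside -0.004 over all probes tested. Twist1 and the dimmest Fn1 probe were lower with Cdh1 in both sets, and the other 8 had opposite signs in set 1 and set 2. No share over all probes tested stands beside this count, so nothing particular to the members is read from it. With the sets as replicate block, the Cdh1 intervals of Zeb2, Snai2, Vim and Tgfbi all lay between -0.28 and 0.22. Those of the 3 Fn1 probes were -0.32 to 0.21, -0.43 to 0.60 and -0.34 to 0.09, in the order of their description. These intervals give the uncertainty of each difference at 24 h on the 4 arrays. They are not limits above which a response would have passed the test. With the same block the Twist1 interval was -2.49 to -1.74, and its limma adjusted p was still 0.668. That interval rests on Cdh1 values below background, and the probe entered the test through its control arrays alone. Under normexp with quantile normalization the Twist1 difference was -0.35, outside that interval.

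**Figure D3:**
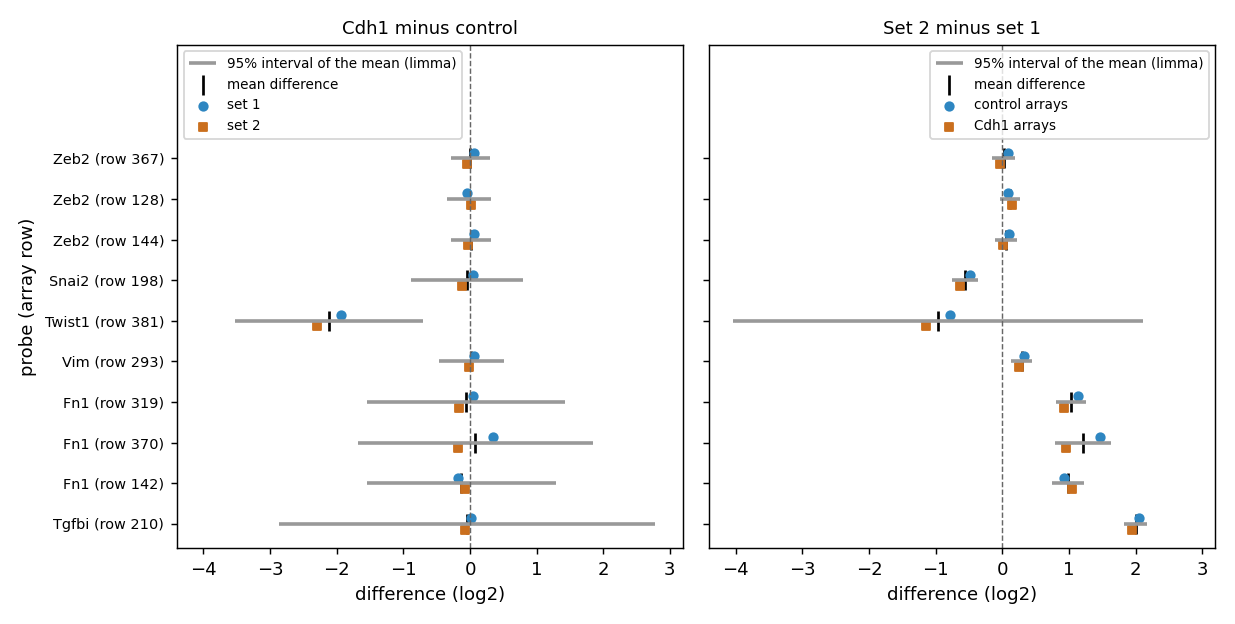
Differences of the 10 tested member probes on the log2 scale, with Cdh1 minus control in one panel and set 2 minus set 1 in the other, with points for the differences within each set or group, ticks for their means and bars for the 95% limma intervals. Apart from Twist1 the Cdh1 differences lie between -0.13 and 0.08, while the set differences reach 2.0 for Tgfbi, about 1 for the 3 Fn1 probes and -0.56 for Snai2.

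Between the sets 5 of the 10 member probes passed, 4 of them higher in set 2 (3 of Fn1 and 1 of Tgfbi) and 1 lower (Snai2). Over all probes tested 4571 (14.0%) passed, 2029 (6.23%) higher and 2542 (7.81%) lower in set 2. With the replicate block 1597 probes passed (4.90%), and 3 member probes, of Fn1 and Tgfbi. The members' median set difference was 0.205, beside 0 over all probes. Counts and median here take each probe of Fn1 and Zeb2 separately. By gene, 3 of the 6 tested were called (Fn1, Tgfbi and Snai2), beside 7.00% of all tested genes called higher and 10.5% lower. With any 1 of the 4 arrays left out, or with no filter on dim probes, 0 member probes and 0 of all probes passed. With an array left out, the adjusted p of Tgfbi lay between 0.0697 and 0.0828. The set comparison has no assigned cause in the labels, and both members of a set share whatever distinguished it.

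Markers of other cell types were read beside these differences, as sums of linear signal relative to the 75th percentile. The fibroblast list, whose cells make much fibronectin, had 6 of 10 genes above background on all 4 arrays, namely Col1a1, Col1a2, Pdgfra, Pdgfrb, Postn and Acta2, and the other 4, Col3a1, Lum, Dcn and Thy1, on none. Its sum was 13.9 and 13.8 in set 1 and 12 and 11.7 in set 2. Most of it came from Acta2 (levels 3.31, 3.32, 3.12 and 3.09) and Col1a2, neither called between the sets. Col1a1 (-1.22) and Pdgfra (-0.41) were called lower in set 2, while Postn (0.10) and Pdgfrb (0.04) were not called. The leukocyte list had 5 of 10 on all arrays, Ptprc, Adgre1 and Cd52 on none, and sums of 12.8, 12.6, 11 and 12.5. Most of these sums came from Itgam (levels 3.44, 3.43, 3.22 and 3.40). The endothelial list had 2 of 6, with Vwf called lower in set 2 (-2.70), and sums of 0.504, 0.401, 0.137 and 0.159. The epithelial list had 3 of 6, with Epcam, Krt8 and Krt18 on none, and sums of 0.141, 0.136, 0.138 and 0.134. The melanocyte sum was 1770 and 1740 in set 1 and 1490 on each array of set 2, with 4 of its 10 genes (Tyr, Pmel, Mitf and Slc45a2) called lower in set 2 and 0 higher. With the replicate block 2 of these 4 calls were lost, Pmel (adjusted p = 0.0639) and Mitf (0.0798), as was Pdgfra (0.077). The part of these shifts in the Fn1, Tgfbi and Snai2 differences was not tested. In bulk RNA, fewer cells of a kind and less RNA per cell cannot be told apart.

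The endogenous Cdh1 gene (NM_009864) is what the Snail and Zeb repressors act on and also encodes the protein that was added. Its levels were -4.56, -4.55, -4.38 and -4.45 with control before Cdh1 and set 1 before set 2, above background on all 4 arrays. The groups overlapped. Added protein carries no RNA, so this probe does not check the treatment.

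Other genes of the transition were read as 8 lists covering 208 symbols, some in more than 1 list, each gene by its brightest probe. In the Cdh1 comparison 0 genes of any list passed with limma. An unadjusted limma p under 0.05 was found for 1 gene of the TGF-beta ligand list and 1 of the mesenchymal list, beside 1.72% of all probes tested. The gene of the mesenchymal list was Fbn1 (-0.67, SE 0.18). Its probe was well above background on the 2 control arrays alone, so a difference in this direction was built into its selection. Over the 14450 genes tested the median difference was -0.014. Between the sets 1012 of these genes (7.00%) were called higher and 1519 (10.5%) lower in set 2, with a median of -0.029. The list counts below are set beside these shares, and nothing particular to a list is claimed.

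Of 32 TGF-beta ligands, receptors and Smads, 26 were tested, 5 were called higher and 2 lower in set 2, with a median of 0.042. Smad6, an inhibitory Smad, rose by 0.95 (SE 0.05; limma adjusted p = 0.00954), from -3.23 and -3.24 in set 1 to -2.26 and -2.30 in set 2. Smad3, which carries the TGF-beta signal to DNA, rose by 0.72 (SE 0.05), and Ltbp3, which holds latent TGF-beta in the matrix, by 0.44 (SE 0.07). Smad7, the feedback inhibitor, fell by 0.61 (SE 0.06) and the type II receptor Tgfbr2 fell by 0.37 (SE 0.05), both against the direction of Tgfbi. With the replicate block 2 of these genes were called, Smad6 and Smad3. The adjusted p was then 0.0636 for Ltbp3, 0.0506 for Smad7 and 0.074 for Tgfbr2. With Cdh1 the values ran from -0.18 (SE 0.12) for the ubiquitin ligase Smurf2 to 0.46 (SE 0.16) for Lrrc32, which tethers latent TGF-beta at the cell surface. The Lrrc32 value was 0.70 in set 1 and 0.22 in set 2, and 0.04 under normexp with quantile normalization.

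Of 20 TGF-beta target genes, 17 were tested, 5 higher and 3 lower in set 2, and the median was -0.079. The highest were Id3 (1.02, SE 0.18), a dominant-negative partner of E-box factors, Pmepa1 (0.83, SE 0.06), which dampens Smad signalling, and the zinc-finger factor Klf10 (0.71, SE 0.11). The called genes on the other side were Col1a1 (-1.22, SE 0.14), a fibrillar collagen chain, Smad7 (-0.61) and the cell-cycle inhibitor Cdkn1a (-0.55, SE 0.07). With the replicate block 4 were called higher and 1 lower, and Smad7 (0.0506) and Cdkn1a (0.0633) missed the threshold. Fn1 and Tgfbi thus stood with some targets that were called higher and apart from others, such as Col1a1, that were called lower. The lowest Cdh1 value was that of Tagln, a smooth-muscle actin binder, at -0.37 (SE 0.25), with -0.70 in set 1 and -0.05 in set 2. The highest was that of the corepressor Tgif1, 0.04.

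Of 30 other transition factors and partners, 27 were tested, 4 higher and 5 lower in set 2, with a median of 0.044. Sox9, a neural-crest and stem-cell factor, had levels of 0.43, 0.20, -2.36 and -2.39 and fell by 2.69 (SE 0.10; limma adjusted p = 0.00772), in the same direction as Snai2. Klf8 fell by 0.73 (SE 0.12). Btrc, the ubiquitin ligase subunit that marks Snail for destruction, fell by 0.54 (SE 0.10) on its brightest probe and was at -0.18 with an adjusted p of 0.169 when all its probes were averaged. Id3, Id2 (0.58, SE 0.05) and Id1 (0.57, SE 0.07) were called higher. With the replicate block 2 were called higher and 1 lower, and the adjusted p was 0.0785 for Klf8, 0.0591 for Btrc and 0.0574 for Id1. The Cdh1 values ran from -0.31 (Id3, SE 0.53) to 0.15 (Btrc).

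Of 36 other mesenchymal and matrix genes, 30 were tested, 1 higher and 4 lower in set 2, with a median of -0.134. Caldesmon (Cald1) rose by 0.32 (SE 0.06), a call lost with the replicate block (adjusted p = 0.0807). Col1a1, the fibronectin receptor chain Itga5 (-1.08, SE 0.09) and the calcium-binding protein S100a4 (-0.80, SE 0.09) were among those called lower, against the direction of Fn1. N-cadherin (Cdh2), the junction protein of mesenchymal cells, read 2.87, 2.86, 2.85 and 2.78. The lowest Cdh1 value was that of the surface protease Fap, -1.32 (SE 0.60), with -0.32 in set 1 and -2.31 in set 2. Its probe lay in row 379, was above background on 3 arrays, and gave -0.35 under normexp with quantile normalization. It was not above background on the Cdh1 array of set 2, so it entered the test through its control arrays alone. That selection favours a difference in this direction. The highest was Itga5, 0.14.

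Of 38 epithelial genes, 19 were above background on no array, 16 were tested, and 1 was called higher and 4 lower in set 2, with a median of -0.172. Grhl1, an epithelial transcription factor, rose by 0.85 (SE 0.05). The polarity protein Patj fell by 1.25 (SE 0.08; -0.78 over all its probes), Klf4 by 0.74 (SE 0.06) and the junction protein Tjp3 by 0.58 (SE 0.06). Under the block 1 was called higher and 3 lower, with the call lost for Spint1, a protease inhibitor (adjusted p = 0.0395 without the block and 0.0742 with it). The Cdh1 values ran from -0.19 (Rab25) to 0.07 (Tjp1). The Rab25 probe was above background on 3 arrays and entered the test through its control arrays alone, which favours a difference in this direction.

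Of 25 melanoma phenotype genes tied to Zeb and Twist, 17 were tested, 3 higher and 5 lower in set 2, with a median of -0.095. The neural-crest receptor Ngfr rose by 1.11 (SE 0.10), the Wnt effector Tcf7l2 by 0.39 (SE 0.06; 0.17 and adjusted p = 0.0706 over all its probes) and the stem-cell-factor receptor Kit by 0.36 (SE 0.06). Sox9, the hepatocyte growth factor receptor Met (-1.95, SE 0.11) and the AP-1 subunit Fosl2 (-1.42, SE 0.05) were lowest. The Cdh1 values ran from -0.13 (Sox9) to 0.41 (SE 0.23) for Wnt5a, a ligand linked to invasive melanoma states, which was 0.05 in set 1 and 0.78 in set 2. Under the block 1 was called higher and 4 lower, and the adjusted p was 0.0734 for Tcf7l2 and 0.0801 for Kit.

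Of 17 intermediate filament genes and linkers, 13 were tested, 2 higher and 0 lower in set 2, with a median of 0.022. Peripherin (Prph), a type III filament protein like vimentin, rose by 1.59 (SE 0.15), from -4.83 and -5.18 to -3.35 and -3.48, and the lamin Lmnb2 by 0.39 (SE 0.07; adjusted p = 0.0825 with the replicate block). With Cdh1 the lowest value was that of Prph (-0.24) and the highest that of synemin, Synm (0.18).

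Of 30 receptors and partners of fibronectin and Tgfbi, 24 were tested, 2 higher and 4 lower in set 2, with a median of -0.055. The focal-adhesion linker Tns1 rose by 1.66 (SE 0.06; limma adjusted p = 0.00772), from 0.10 and 0.01 to 1.74 and 1.69, and Tns3 by 0.37 (SE 0.06). Itga5 (-1.08), Itga8 (-1.08, SE 0.11), which also binds fibronectin, and vinculin (Vcl; -0.54, SE 0.06) were called lower. Under the block 1 was called higher and 2 lower, and the adjusted p was 0.0516 for Vcl, 0.0697 for Tns3 and 0.0764 for the integrin chain Itga3. The lowest Cdh1 value was that of elastin, -0.54 (SE 0.29), with -1.06 in set 1 and -0.02 in set 2. Its probe was well above background on the 2 control arrays alone, so a difference in this direction was built into its selection.

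**Figure D4:**
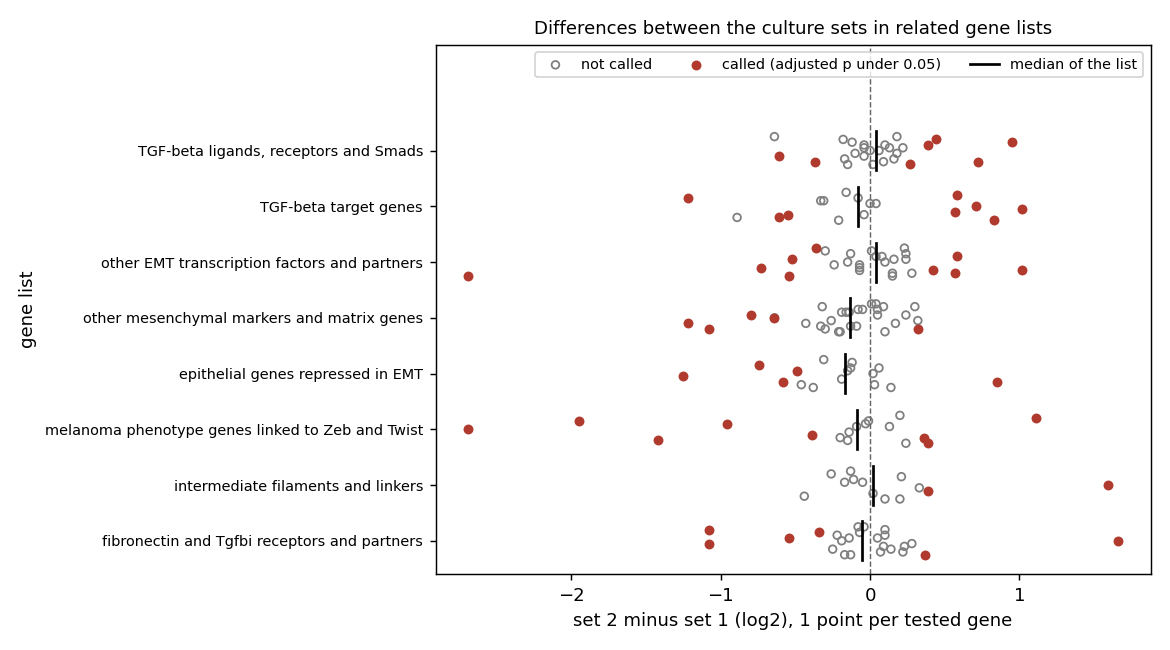
Set 2 minus set 1 differences (log2) of the tested genes in the 8 lists, 1 point per gene, with genes past the adjusted threshold marked and the list median drawn. In 7 of the 8 lists called genes lie on both sides of 0, and the intermediate filament list has called genes above 0 alone.

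The pattern of Fn1, Tgfbi and Snai2 over the 4 arrays was set against the 13996 genes above background on every array, by the root mean square difference after subtraction of each gene's mean. Nearest to Fn1 were Gm20740 (0.015), the tetraspanin Tspan14 (0.019) and P3h2, a collagen prolyl hydroxylase (0.027). Nearest to Tgfbi were 2310057J18Rik (0.053), Igsf21 (0.067) and the semaphorin Sema3f (0.074), which read -3.89, -3.74, -1.68 and -1.74. Nearest to Snai2 were the interferon-induced GTPase Gbp2 (0.015), the homeobox gene Irx6 (0.021) and galectin-9, Lgals9 (0.021). With 4 arrays from 2 sets such likeness says little beyond a shared set difference of similar size.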

How the data were processed

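Total RNA of 4 cultures was hybridised to single-colour (Cy3) Agilent arrays. The scanner files were made with Agilent Feature Extraction 12.0.3.1, per the submitters' processing notes. Per the file headers, the deposited value of a spot is a processed intensity, linear and background-subtracted, with flags. No scaling from array to array had been applied. A table of processed intensities that the authors deposited beside the scanner files served as an alternative.

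From these, log2 intensities minus each array's 75th percentile over non-control spots were computed, outlier spots left out and spots of a probe averaged. Probes that both control arrays or both Cdh1 arrays had well above background were tested with limma 3.58.1 in R 4.3.3 (lmFit, eBayes, Benjamini-Hochberg over 32568 probes, threshold 0.05), over all 4 arrays, for Cdh1 minus control and set 2 minus set 1. The code was tested on simulated data. The Twist1 fold with replaced Cdh1 values uses the lowest level well above background per array.

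The design text pairs control and Cdh1 by set. Deviations of same-set arrays from their group means correlated at 0.677 over 32568 probes, so the set number pairs the samples and the fit with the sets as replicate block is given where it changes a call. Alternatives were other background corrections, normalizations, filters, priors, the last 24 array rows left out and each array left out. The normexp alternative (offset 50) was followed by quantile normalization and used the median spot signal, which was chosen after seeing the data because the files hold no mean signal.

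Names came from matching RefSeq accessions to a RefSeq gene table of GRCm38.p6, where 33767 of 56605 probes matched. The headers name mm9, so no gene coordinates are given. All 9 genes are named. From each list, the highest and lowest Cdh1 difference and up to 3 called genes per direction of the set comparison are named, and for each called member the 3 genes nearest in pattern. Other genes named from the lists, such as Cdh2, Fbn1, Spint1 and Itga3, and the endogenous Cdh1 gene were chosen after their values were seen. The members and lists were chosen with earlier results of these data known.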

Additional observations from a re-analysis of the deposited data

How the results depend on the processing

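With 2 arrays per group, signal over background and the number of arrays limit what can be called. The count for Cdh1 minus control was 0 under every alternative run, for members and for all probes. The set count of 4571 probes became 8502 under normexp with quantile normalization, 10712 with a trended robust prior, 1597 with the replicate block and 0 without the dim-probe filter. The 5 member probes became 3 with the block and 0 without the filter. With each array left out in turn both counts were 0 to 0, where the sets are no longer balanced between the groups. For the genes named by rule, calls that the block ended stand beside them in the report.

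Uncalled Cdh1 differences changed sign. Under single settings, the Zeb2 probes read 0.01 (quantile) and 0.02 (authors' table) for A_52_P596008, and -0.06 (normexp with quantile), -0.01 (quantile) and -0.03 (median centring) for A_52_P526372. Vim read -0.02 (median centring), Fn1 A_51_P100856 -0.08 and Rab25 0.03 (both normexp with quantile). With 1 array left out the ranges were -0.08 to 0.07 and -0.04 to 0.07 for those Zeb2 probes, -0.36 to 0.28 (Snai2), -0.14 to 0.18 (Vim), -0.63 to 0.51, -0.65 to 0.82 and -0.65 to 0.39 (Fn1), and -1.06 to 0.99 (Tgfbi). They were -0.16 to 0.45 (Btrc), -0.89 to 0.28 (Id3), -0.42 to 0.71 (Itga5), -0.44 to 0.06 (Rab25), -1.53 to 1.26 (Sox9), -0.05 to 0.40 (Synm) and -1.10 to 0.61 (Prph). For set 2 minus set 1 they were -0.01 to 0.05 (Zeb2 A_51_P121206) and -2.11 to 0.18 (Twist1). With 1 array left out, the sets are no longer balanced between the groups. Part of a set difference then enters the Cdh1 difference, and the reverse. The cause of the sign changes under single settings was not tested.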
